A study of Homo sapiens with 4 samples.

Results

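The genes of the integrin and laminin chains were examined in a pair of human breast cancer cell lines. A gene was taken when its symbol in the platform annotation names an integrin α or β chain or a laminin α, β or γ chain and when a probe set was annotated to that gene alone. This gave 35 genes of the 18417 with such a probe set: 17 integrin α chains, 8 integrin β chains and 10 laminin chains. Each of the 35 had 1 probe set. ITGA1, whose only probe set is annotated to several genes, and LAMA3 were not analysed here. The lines were MDA-MB231 and Hs578T, established lines labelled as basal-like breast cancer. FBP1 encodes the gluconeogenic enzyme fructose-1,6-bisphosphatase. The 4 groups were control MDA-MB231 cells, MDA-MB231 cells made to express FBP1, control Hs578T cells and Hs578T cells made to express FBP1, with 1 array each. Per the series' design text the FBP1 cells were stable clones, so the effect of FBP1 and that of the clone taken cannot be told apart; the number of clones, and what the control cells carry, are not given in the sources used here. All cells were grown in serum-containing medium and harvested in log phase.

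Integrins are cell surface receptors made of an α and a β chain, and the pair decides which matrix protein or cell surface ligand is bound. Laminins are cross-shaped trimers of an α, a β and a γ chain and are the main cell-binding proteins of basement membranes. In breast epithelium, α6β4 integrin bound to laminin-332 anchors basal cells in hemidesmosomes, whereas α11β1 on collagen and α5β1 on fibronectin are typical of mesenchymal cells.

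The introduced gene was higher in each array labelled as expressing it. FBP1 stood at log2 9.83 in control and 13.07 in FBP1 cells of MDA-MB231 and at 6.35 and 13.35 in those of Hs578T. Array medians lay between log2 7.83 and 7.86. A gene is called here when its Benjamini-Hochberg adjusted p for the difference between the lines is under 0.05 in a limma fit, and 40.8% of all 15946 genes tested were called, 21.8% higher in MDA-MB231 and 19% higher in Hs578T. Of the basal markers fixed for this work, 4 of 7 were measured and 2 were called, the cadherin gene CDH3 higher in MDA-MB231 (1.99-fold) and the keratin gene KRT14 higher in Hs578T (1.61-fold). The KRT14 difference (limma adjusted p = 0.049) was 1.16-fold between the control arrays and 2.25-fold between the FBP1 arrays. EGFR lay between log2 10.63 and 11.05 on the 4 arrays and the basal keratin gene KRT5 between 6.80 and 6.93. The level below which genes were left out, called the filter level here, was log2 6.16. The luminal receptor genes ESR1 (6.64 to 6.80) and PGR (5.61 to 6.36) lay near it. Of 4 mesenchymal markers, the N-cadherin gene CDH2 (49.1-fold) and the fibronectin gene FN1 (2.04-fold) were called higher in Hs578T, while VIM (13.71 to 13.72) and ZEB1 (10.95 to 11.14) were not called. All 5 fibroblast markers were called higher in Hs578T. Their summed log2 level was 32.09 and 31.08 on the MDA-MB231 arrays against 51.17 and 49.52 on the Hs578T arrays. Of these markers, DCN and FAP lay between log2 4.99 and 5.25 in MDA-MB231, below the filter level, and passed it through Hs578T alone. Of the 9 luminal markers, 8 were tested and 5 were called, each higher in MDA-MB231. The part of these broader line identities in the differences below was not tested.

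Of the 34 chains that could be tested, 18 differed between the lines and 16 were not called. MDA-MB231 had the higher transcript levels of the laminin receptor chains ITGB4 (12.4-fold) and ITGA6 (4.65-fold) and of the TGF-β-activating chain ITGB8 (3.30-fold). Hs578T had the higher levels of the collagen receptor chain ITGA11 (40.4-fold), of ITGA8 and ITGA4 (at least 13.2-fold and 11.3-fold, set against the filter level, since both lay below it in MDA-MB231), of the fibronectin and vitronectin receptor chains ITGA5, ITGAV, ITGB3 and ITGB5, and of the laminin chains LAMA2, LAMA4 and LAMC1. Of the 35 genes, 34 passed the filter on low values and were tested with limma in a fit of line and construct over all genes. Of the 18 called, 6 were higher in MDA-MB231 and 12 higher in Hs578T, a share of 52.9% against the 40.8% of all genes. Called differences of at least 2-fold numbered 10 of the 34 chains, 3 higher in MDA-MB231 and 7 in Hs578T, where 10.8% of all genes tested met that rule, 5.44% and 5.34% by direction. The arrays of the lines did not overlap for 25 of the 34 chains, near the 73% of all genes. The median size of the line difference was 0.33 log2 over the 34 chains and 0.25 over all genes. ITGA8 and ITGA4 passed the filter through their Hs578T arrays alone; of the other 32 chains 16 were called, against 39.7% of all genes other than those with 1 line below the filter level, and 8 were called and at least 2-fold apart, 3 higher in MDA-MB231 and 5 in Hs578T, against 9.55%. Each line was represented by its control and its FBP1 array (n = 2 per line), so the fit takes its error from how far the lines disagree in their response to FBP1, moderated over genes. Its p-values hold no spread between repeat cultures of a line. The Hs578T level of ITGB4 and the MDA-MB231 level of ITGA11 were low and may lie near background, which would leave the size of their folds uncertain.

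**Figure D1:**
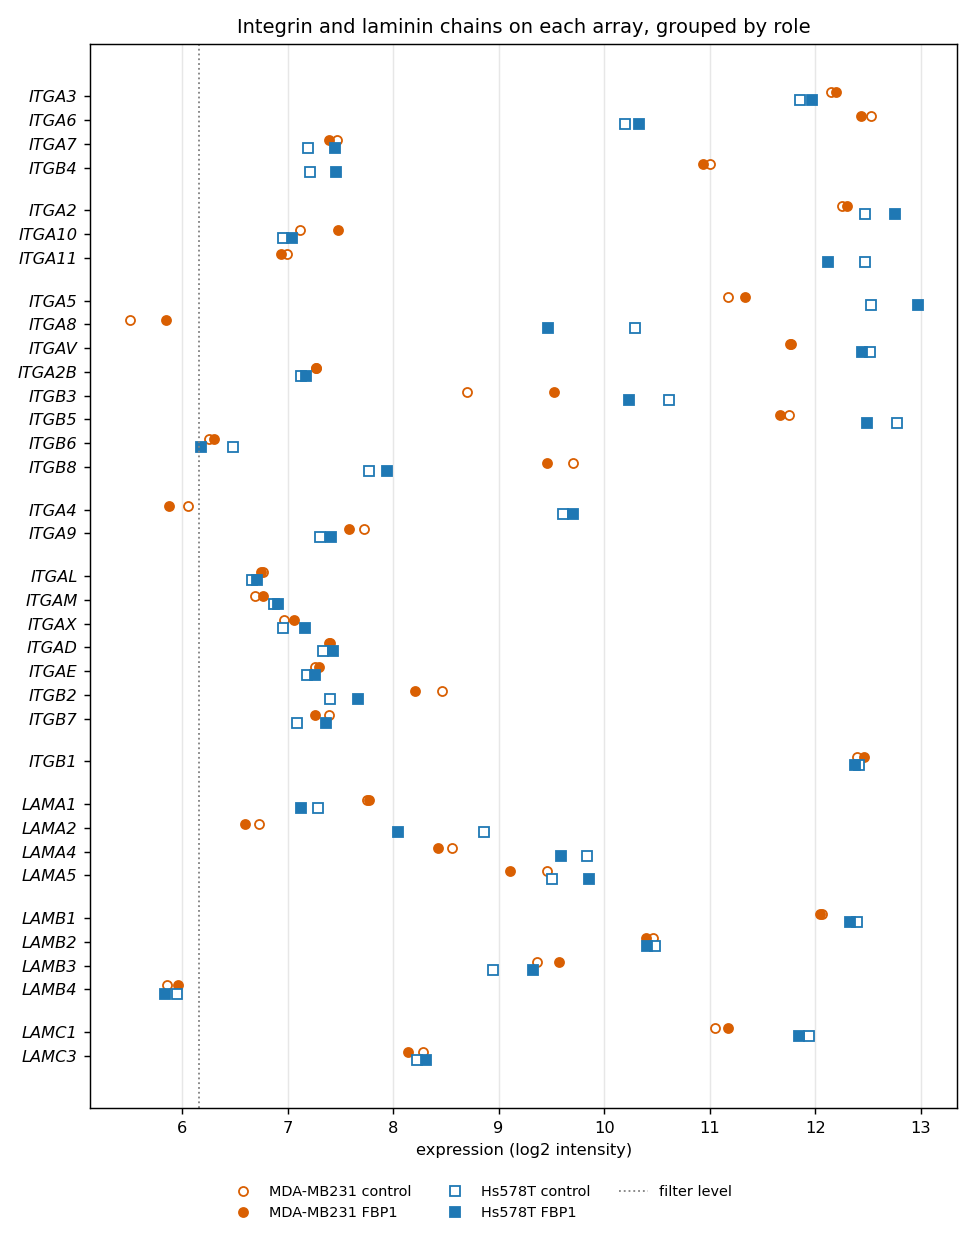
Log2 intensity (horizontal axis) of the 35 integrin and laminin chain genes on the 4 arrays, in blocks by role; MDA-MB231 is drawn as circles just above and Hs578T as squares just below each gene's line, open for control and filled for FBP1, and the dotted line marks the filter level of 6.16. ITGB4, ITGA6 and ITGB8 lie to the right in MDA-MB231 and ITGA11, ITGA8 and ITGA4 in Hs578T, while ITGB1 lies between 12.38 and 12.46 on every array.

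The laminin-binding integrins comprised ITGA3, ITGA6, ITGA7 and ITGB4. ITGB4 encodes the long-tailed chain that pairs with α6 alone and reaches the keratin network. Its log2 levels in MDA-MB231 were 11.00 in control and 10.94 in FBP1 cells, and those in Hs578T were 7.21 and 7.46. Both MDA-MB231 arrays were far above both Hs578T arrays, by 3.63 log2 (SE 0.12, limma adjusted p = 8.9e-06). ITGA6, the α chain of α6β1 and α6β4, stood at 12.53 and 12.43 in MDA-MB231 and at 10.20 and 10.33 in Hs578T, control before FBP1. The lines did not overlap, and the difference was 2.22 (SE 0.10, limma adjusted p = 2.58e-05). ITGA3, which pairs with β1 to bind laminin-332 and laminin-511, was much closer, at 12.15 and 12.20 against 11.85 and 11.97. Its 1.20-fold difference was called (limma adjusted p = 0.0357) but had an adjusted p of 0.0505 with each array centred on its median and of 0.0763 without the intensity trend in the variance prior (range over the alternatives 0.0288 to 0.0763). ITGA7, a laminin receptor chain of muscle, ranged from 7.19 to 7.47 on the 4 arrays and was not called (0.11, SE 0.12). No chain of this group was called higher in Hs578T.

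The collagen-binding integrins with a usable probe set were ITGA2, ITGA10 and ITGA11. ITGA11, a fibrillar collagen receptor of fibroblasts, showed the widest gap of the 34 chains. It stood at log2 6.99 and 6.94 in MDA-MB231 and at 12.48 and 12.12 in Hs578T, control before FBP1. The difference was −5.33 (MDA-MB231 minus Hs578T, SE 0.12, limma adjusted p = 4.16e-06), and it was 44.8-fold between the control arrays and 36.3-fold between the FBP1 arrays. ITGA2, the epithelial and platelet collagen receptor chain, lay above log2 12 on every array, at 12.26 and 12.31 in MDA-MB231 and 12.48 and 12.76 in Hs578T. It was 1.26-fold higher in Hs578T (limma adjusted p = 0.0228, from 0.0178 to 0.0545 over the alternatives, the highest without the intensity trend). ITGA10, a chondrocyte collagen receptor chain, stood at 7.12 and 7.48 against 6.95 and 7.04, and its difference of 0.30 (SE 0.12) was not called. Of the collagen receptor chains, ITGA11 alone differed by more than 2-fold between the lines.

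The integrins that recognise the RGD tripeptide gave 6 calls among 8 chains, 5 of them higher in Hs578T, where 40.8% of all genes were called and 19% were higher in Hs578T. ITGA8, 1 of these, passed the filter through Hs578T alone. ITGA5, the α chain of the fibronectin receptor α5β1, stood at log2 11.17 and 11.34 in MDA-MB231 and 12.53 and 12.97 in Hs578T. This was 2.82-fold higher in Hs578T (difference −1.50, SE 0.10, limma adjusted p = 0.000116). ITGAV, the shared α chain of the vitronectin receptors, stood at 11.76 and 11.77 against 12.52 and 12.44, a 1.64-fold difference with no overlap (limma adjusted p = 0.000899). Its β partners split between the lines. ITGB5 stood at 11.75 and 11.66 in MDA-MB231 and 12.77 and 12.50 in Hs578T (1.90-fold, limma adjusted p = 0.000446). ITGB3, the β chain of αvβ3, stood at 8.70 and 9.53 in MDA-MB231 and 10.61 and 10.23 in Hs578T (2.48-fold, limma adjusted p = 0.0102). The limma adjusted p of ITGB3 ranged from 0.00687 to 0.0482 over the alternatives, the highest with a robust variance prior. ITGB8, which with αv activates latent TGF-β, went the other way, at 9.71 and 9.45 in MDA-MB231 and 7.77 and 7.94 in Hs578T (difference 1.72, SE 0.13, limma adjusted p = 0.00023). ITGB6, the β chain of epithelial αvβ6, lay between 6.17 and 6.48 on all 4 arrays, next to the filter level, and the platelet chain ITGA2B between 7.13 and 7.27; neither was called.

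ITGA8, the nephronectin receptor chain of smooth muscle and kidney mesenchyme, stood at log2 5.50 and 5.84 in MDA-MB231, both below the filter level, and at 10.30 and 9.47 in Hs578T. Both Hs578T arrays were above both MDA-MB231 arrays, with a difference of −4.21 (SE 0.26, limma adjusted p = 0.000101). ITGA4, the α chain of the receptors for VCAM1 and fibronectin, gave a like picture, at 6.06 and 5.88 against 9.61 and 9.71 (difference −3.69, SE 0.12, limma adjusted p = 8.13e-06). The MDA-MB231 values of ITGA8 and ITGA4 may lie at background, which leaves the size of their folds uncertain. ITGA9, the closest relative of ITGA4, ranged from 7.30 to 7.72 and was not called (0.29, SE 0.11).

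ITGB1, the chain with which most α chains pair, hardly varied. It stood at log2 12.40 and 12.46 in MDA-MB231 and at 12.42 and 12.38 in Hs578T, and the arrays of the lines overlapped. Its difference was 0.03 (SE 0.07, limma adjusted p = 0.78). The α chains that use it, by contrast, included ITGA6, higher in MDA-MB231, and ITGA11, ITGA8, ITGA4 and ITGA5, higher in Hs578T.

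Of the 7 integrin chains of leukocytes, 1 was called (14.3%, against 40.8% of all genes). ITGB2, the common β chain of the leukocyte integrins, stood at log2 8.46 and 8.20 in MDA-MB231 and at 7.40 and 7.67 in Hs578T, 1.74-fold higher in MDA-MB231 (SE 0.15 log2, limma adjusted p = 0.00712). Its difference was 1.06 between the control arrays and 0.54 between the FBP1 arrays. Its α partners ITGAL, ITGAM, ITGAX and ITGAD lay between 6.67 and 7.43 on all arrays, with line differences from −0.16 for ITGAM to 0.07 for ITGAL, and none was called. The mucosal lymphocyte chains ITGAE (7.18 to 7.29) and ITGB7 (7.09 to 7.39) were not called either. The summed log2 level of the 10 measured leukocyte markers was 67.66 and 68.28 on the MDA-MB231 arrays and 66.4 and 68.08 on the Hs578T arrays, and 3 of the 10 lay below the filter level on all arrays. The pan-leukocyte gene PTPRC lay between 4.52 and 4.96. Of the 6 leukocyte markers tested, CD14 (0.72) and LCP2 (0.75) were called higher in MDA-MB231, as ITGB2 was, and CORO1A (−0.55) higher in Hs578T. The part of leukocyte-type expression in the ITGB2 difference was not tested. In the RefSeq gene table ITGAM, ITGAX and ITGAD are consecutive protein-coding genes.

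Among the laminin α chains, Hs578T had more LAMA2 and LAMA4 and MDA-MB231 more LAMA1. LAMA2 encodes the α chain of muscle and nerve basement membranes. It stood at log2 6.73 and 6.60 in MDA-MB231 and at 8.86 and 8.05 in Hs578T (difference −1.79, SE 0.17, limma adjusted p = 0.000567). LAMA4, the mesenchymal and endothelial α chain, stood at 8.55 and 8.42 against 9.83 and 9.59 (−1.23, SE 0.10, limma adjusted p = 0.000333). LAMA1, the α chain of the embryonic basement membrane, was 1.47-fold higher in MDA-MB231, at 7.75 and 7.77 against 7.28 and 7.12 (limma adjusted p = 0.00884). The arrays of the lines did not overlap for any of these chains, nor for LAMA5, which was not called. The same held for 73% of all genes. LAMA5, the widespread epithelial α chain, stood at 9.46 and 9.11 in MDA-MB231 and 9.51 and 9.86 in Hs578T. Its difference was 0.05 in size between the control arrays and 0.75 between the FBP1 arrays, with Hs578T the higher, and the mean of −0.40 (SE 0.17) was not called.

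Of the β and γ chains, LAMC1 and LAMB1, which are part of many laminins, were higher in Hs578T. LAMC1 stood at log2 11.05 and 11.18 in MDA-MB231 and 11.94 and 11.85 in Hs578T, a 1.72-fold difference (limma adjusted p = 0.00139). LAMB1 stood at 12.06 and 12.04 against 12.40 and 12.33, a 1.24-fold difference (limma adjusted p = 0.0184). LAMB2, the β chain of synapse and kidney filter laminins, ranged only from 10.40 to 10.48 (difference −0.015, SE 0.10). LAMB3, the β chain of laminin-332, stood at 9.36 and 9.57 in MDA-MB231 and 8.95 and 9.32 in Hs578T, so the highest Hs578T array fell just below the lowest MDA-MB231 array. Its difference of 0.33 (SE 0.11) had a limma adjusted p of 0.0503, and between 0.0449 with genes below the 50th percentile left out and 0.142 with the construct left out of the fit. LAMC3 ranged from 8.14 to 8.32 and was not called. LAMB4, the neighbour of LAMB1 in the RefSeq table, lay between 5.84 and 5.96 on all arrays, below the filter level, and was the 1 chain not tested.

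**Figure D2:**
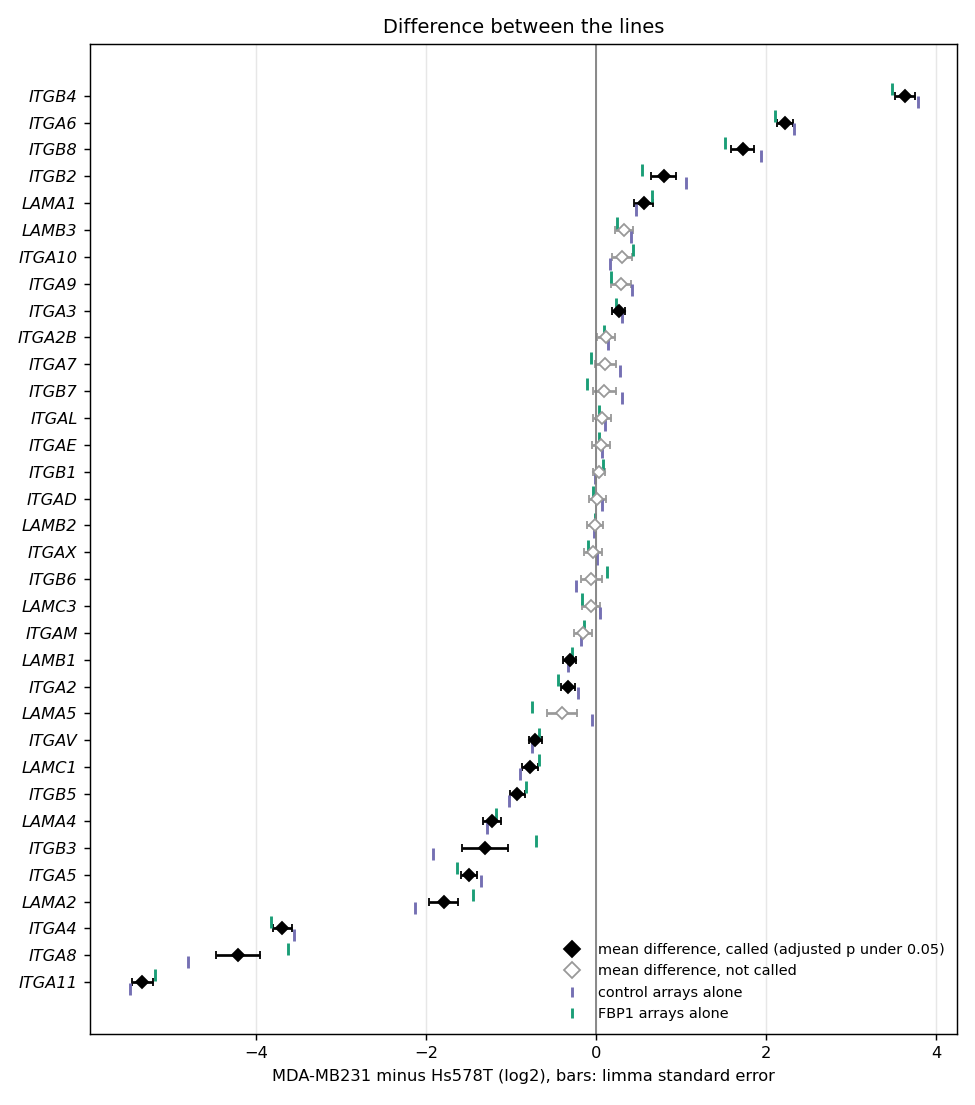
Difference between the lines in log2 (MDA-MB231 minus Hs578T, horizontal axis) for the 34 tested chains; diamonds with bars give the mean difference and its limma standard error, filled where called, and ticks give the difference between the control arrays alone and between the FBP1 arrays alone. ITGB4 lies at 3.63 and ITGA11 at −5.33, and the ticks are widest apart for ITGB3 (−1.91 and −0.70) and ITGA8 (−4.79 and −3.62).

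The promoters of the chains with the 3 largest called differences in each direction are shown so that their start regions can be set side by side with the levels above. RefSeq's promoter table on GRCh38.p14 held 24 of the 35 genes, of which the first entry was taken, with 250 bases before and 50 from the start site on. Of these 6 chains ITGB4 had no entry; the others are given 5′ to 3′ in the direction of the gene. Capitals mark matches on either strand to motifs fixed for this work. The AP-1 motif was searched as TGACTCA with its reverse complement. The E-box read by ZEB and Snail factors was searched as CACCTG, and the Sp1 motif was searched as GGGCGG. The fourth motif was the TATA box, searched as TATAAA.
ITGA11 (chr15:68432114-68432413, minus strand): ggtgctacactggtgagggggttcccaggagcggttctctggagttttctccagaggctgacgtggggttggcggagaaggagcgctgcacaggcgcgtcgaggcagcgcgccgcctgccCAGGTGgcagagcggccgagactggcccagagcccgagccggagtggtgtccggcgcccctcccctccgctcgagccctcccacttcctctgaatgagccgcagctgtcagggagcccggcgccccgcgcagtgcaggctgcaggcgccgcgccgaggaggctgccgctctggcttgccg
ITGA8 (chr10:15719873-15720172, minus strand): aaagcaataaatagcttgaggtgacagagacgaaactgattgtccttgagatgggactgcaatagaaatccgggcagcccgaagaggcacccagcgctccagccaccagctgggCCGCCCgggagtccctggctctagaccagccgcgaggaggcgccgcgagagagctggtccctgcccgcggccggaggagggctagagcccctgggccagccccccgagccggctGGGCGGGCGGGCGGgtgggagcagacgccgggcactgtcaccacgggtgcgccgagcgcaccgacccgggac
ITGA4 (chr2:181457136-181457435, plus strand): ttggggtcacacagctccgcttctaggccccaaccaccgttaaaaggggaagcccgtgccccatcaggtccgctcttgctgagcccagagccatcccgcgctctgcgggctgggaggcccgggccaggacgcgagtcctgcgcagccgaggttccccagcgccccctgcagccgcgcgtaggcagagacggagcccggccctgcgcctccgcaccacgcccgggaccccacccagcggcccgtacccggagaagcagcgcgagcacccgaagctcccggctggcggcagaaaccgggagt
ITGA6 (chr2:172427086-172427385, plus strand): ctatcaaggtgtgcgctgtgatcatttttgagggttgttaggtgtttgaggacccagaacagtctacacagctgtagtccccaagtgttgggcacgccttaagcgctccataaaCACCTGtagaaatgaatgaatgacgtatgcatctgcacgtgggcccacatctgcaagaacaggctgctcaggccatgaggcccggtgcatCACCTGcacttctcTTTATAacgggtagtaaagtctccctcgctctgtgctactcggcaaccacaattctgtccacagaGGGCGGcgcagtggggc
ITGB8 (chr7:20330650-20330949, plus strand): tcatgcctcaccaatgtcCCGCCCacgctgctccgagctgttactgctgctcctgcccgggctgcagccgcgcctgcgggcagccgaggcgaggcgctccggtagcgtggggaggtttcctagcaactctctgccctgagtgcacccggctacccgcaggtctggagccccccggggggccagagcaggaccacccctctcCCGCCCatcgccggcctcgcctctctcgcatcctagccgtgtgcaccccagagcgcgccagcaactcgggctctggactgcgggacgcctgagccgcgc
Among 27305 promoters of this length, the AP-1 letters were in 4.92%, the E-box in 20.6%, the Sp1 letters in 44.6% and the TATA box in 12%; among the 24 chain promoters they were in 1, 6, 13 and 1. ITGA6 held the E-box at −136 and −46 relative to the start site, a reversed TATA box and 1 Sp1 match. ITGA11 held 1 reversed E-box. ITGA8 held 4 Sp1 matches, of which 3 overlap, and ITGB8 held 2. The ITGA4 window held none of the letters. The dinucleotide CG occurred 29 times in the ITGA11 window, 27 in ITGA8, 31 in ITGA4, 28 in ITGB8 and 11 in ITGA6, and its median was 14 over all promoters. A match is a stretch of letters and was not measured as a bound site.

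Proteins that work with the chains were taken as 4 lists, which were chosen with earlier results of these data known. The 40.8% of all genes called is given as the background. Of 30 tested genes of the integrin adhesion complex, the cytoplasmic proteins that link integrins to actin, 12 were called (40%), 9 higher in MDA-MB231 and 3 in Hs578T. The tensin gene TNS4 had the largest difference, with log2 10.90 and 10.80 in MDA-MB231 against 7.48 and 7.28 in Hs578T (3.47, limma adjusted p = 6.99e-06). TNS2 (0.82), the focal adhesion kinase relative PTK2B (0.60) and the docking protein gene NEDD9 (0.57) were also higher in MDA-MB231. The parvin gene PARVB (−1.84), the kinase gene FYN (−0.76) and the kindlin gene FERMT2 (−0.35) were higher in Hs578T. Of the 6 hemidesmosome genes listed, 5 were tested, and COL17A1 had no usable probe set. The linker genes DST (0.39) and PLEC (0.33) were called higher in MDA-MB231. The tetraspanin gene CD151 (−0.54) and KRT14 (−0.69) were called higher in Hs578T. For KRT14 the difference was −0.21 between the control arrays and −1.17 between the FBP1 arrays.

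Basement membrane partners of laminin were mostly on the Hs578T side among those called. Of 17 tested, 8 were called (47.1%, against 40.8% of all genes). Of these, 7 were higher in Hs578T and 1, FRAS1 (1.91), higher in MDA-MB231, where 19% and 21.8% of all genes were. The nidogen gene NID2, which links laminin to collagen IV, stood at log2 6.65 and 6.67 in MDA-MB231 and 10.02 and 10.69 in Hs578T (−3.69, limma adjusted p = 2.91e-05). The collagen IV genes COL4A1 (−2.68) and COL4A2 (−1.55) and the netrin gene NTN4 (−1.14) followed. Among other integrin ligands 14 of 20 were called (70%), 7 each way. The matrix gene POSTN, a ligand of αv integrins, had the widest gap, with 7.68 and 6.90 against 13.83 and 13.93 (−6.59, limma adjusted p = 7.36e-06), and FBN1 (−2.54), TGFB1 (−1.34) and CCN2 (−1.12) were also higher in Hs578T. VCAM1 (2.36), TNC (2.24), ICAM2 (1.93) and CDH1 (1.34) were higher in MDA-MB231. VCAM1, a ligand of α4 integrins, was thus higher in the line where ITGA4 was lower. VCAM1 lay at 5.92 and 6.04 in Hs578T and FRAS1 at 5.97 and 6.09, below the filter level. Both passed the filter through MDA-MB231 alone, as ITGA4 did through Hs578T, which leaves the size of their differences uncertain. FN1, named among the ligands after its values were seen, was higher in Hs578T by 1.03 log2 (stated as MDA-MB231 minus Hs578T: −1.03, SE 0.06), as its receptor chain ITGA5 was.

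**Figure D3:**
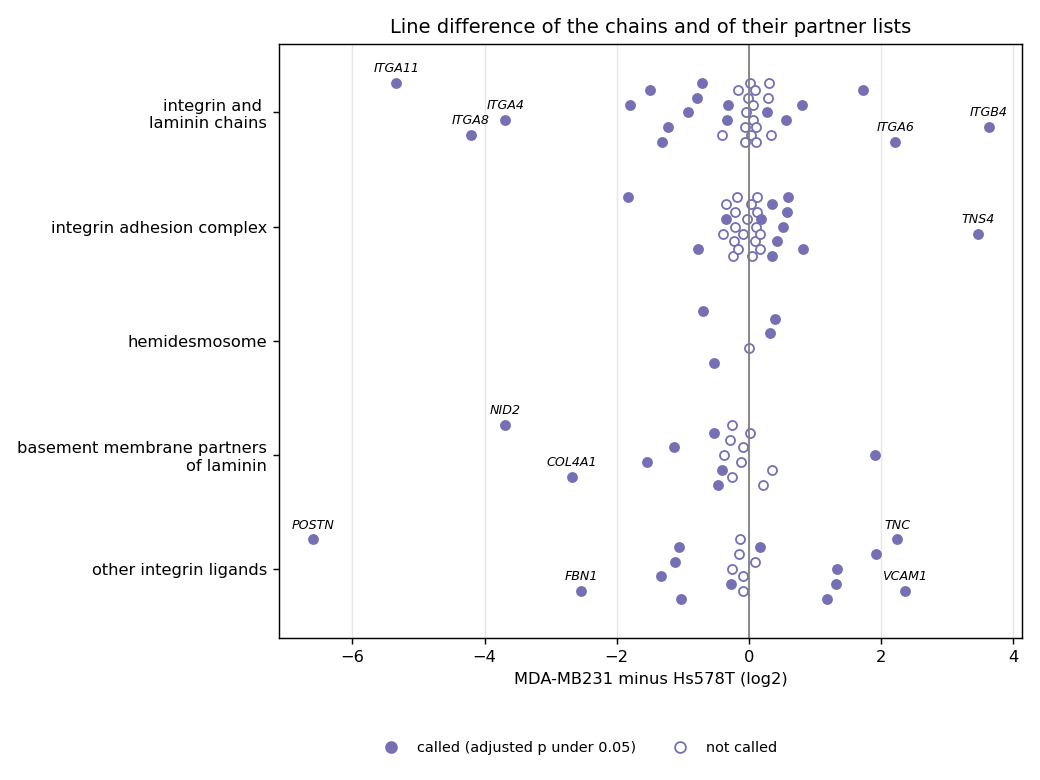
Line difference in log2 (MDA-MB231 minus Hs578T, horizontal axis) of each tested gene of the integrin and laminin chains and of 4 partner lists (vertical axis, with points spread only to be seen); filled points were called by limma at an adjusted p under 0.05, and called genes at least 4-fold apart are named. POSTN lies at −6.59, and TNS4 at 3.47 on the side of ITGB4.

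The next question was how the chains differed between FBP1-expressing and control cells within a line, where 1 array per group allows no test. In MDA-MB231, 1 of the 34 chains, ITGB3, differed by at least 1.5-fold and was higher, where 0.627% of all genes differed by this size and 0.301% were higher. In Hs578T, 2 of the 34, ITGA8 and LAMA2, did so and were lower, where 3.08% of all genes differed by this size and 1.69% were lower. The median change of the chains was −0.012 in MDA-MB231 and 0.079 in Hs578T, and that of all genes tested was −0.005 and 0.021. In size the median change was 0.088 and 0.164, against 0.087 and 0.123 for all genes. Above control were 16 of the 34 chains in MDA-MB231 and 21 in Hs578T, where 48.2% and 54.9% of all genes were.

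ITGB3 was 1.78-fold higher with FBP1 in MDA-MB231 (log2 8.70 in the control and 9.53 with FBP1) and 1.30-fold lower in Hs578T (10.61 and 10.23). Hs578T was the higher line in both constructs, by 3.77-fold between the controls and by 1.63-fold between the FBP1 arrays. ITGA8 was 1.78-fold lower with FBP1 in Hs578T (10.30 and 9.47) and 1.27-fold higher in MDA-MB231 (5.50 and 5.84). The MDA-MB231 control level of ITGA8 was below the filter level and at least 16-fold under that of Hs578T. Of 36 tested genes like this, ITGA8 among them, 28 were above control in MDA-MB231 with FBP1, with a median change of 0.304. Of the 205 other genes below the filter level in that control, 144 were, with a median change of 0.126. Both sets were picked by a low value on the control array from which the change is taken, so the choice itself favours a rise. The part of such a shift in the ITGA8 value was not tested. LAMA2 was 1.75-fold lower with FBP1 in Hs578T (8.86 and 8.05) and 1.09-fold lower in MDA-MB231 (6.73 and 6.60).

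Smaller changes, of at least 0.32 log2 but under 1.5-fold, were seen for ITGA10, LAMA5 and ITGA8 in MDA-MB231 and for ITGA5, ITGB3, LAMB3, ITGA11 and LAMA5 in Hs578T. The share of all genes that differed by at least 0.32 log2 was 4.96% in MDA-MB231 and 12.9% in Hs578T. LAMA5 was 1.28-fold lower with FBP1 in MDA-MB231 (9.46 and 9.11) and 1.28-fold higher in Hs578T (9.51 and 9.86). With ITGB3 and ITGA8 it was 1 of 3 chains at least 0.32 log2 from control in opposite directions in the lines, where 0.677% of all genes were. ITGA10 was 1.28-fold higher in MDA-MB231 (7.12 and 7.48). ITGA5 was 1.37-fold higher in Hs578T (12.53 and 12.97), and ITGA11 was 1.28-fold lower there (12.48 and 12.12). LAMB3 was 1.29-fold higher in Hs578T (8.95 and 9.32) and 1.16-fold higher in MDA-MB231. The laminin receptor chains ITGA6 and ITGB4, which separated the lines, stayed within 0.25 log2 of control in each line. ITGB4 changed by −0.06 and 0.25 and ITGA6 by −0.09 and 0.13, and ITGB1 by 0.06 and −0.04, MDA-MB231 before Hs578T.

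With the lines as the only replication, limma called none of the 34 chains for FBP1 and 0 of 15946 genes. The smallest adjusted p over all genes was 0.943, and FBP1 itself had that value, so the 0 calls do not show that the chains kept their levels. At an unadjusted p under 0.05 there were 819 genes (5.14%), among them 3 chains. These were ITGA5, with changes of 0.17 in MDA-MB231 and 0.45 in Hs578T (limma adjusted p = 0.943), LAMB3, with 0.21 and 0.37 (limma adjusted p = 0.943), and LAMA2, with −0.13 and −0.81 (limma adjusted p = 0.943).

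**Figure D4:**
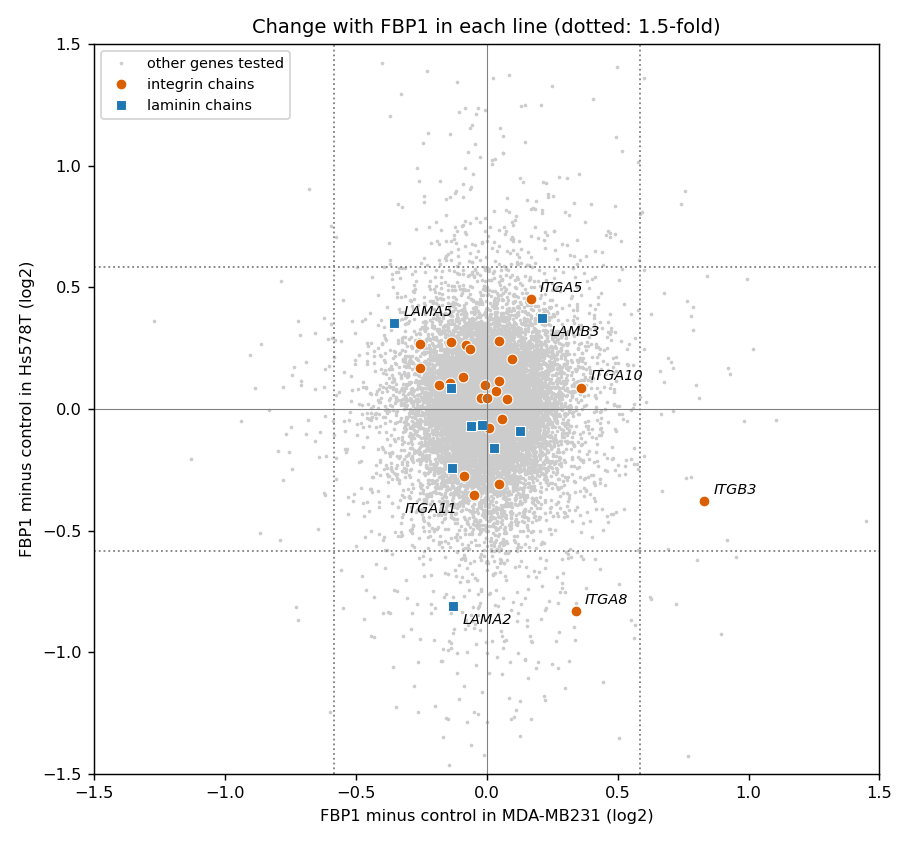
Change with FBP1 (FBP1 minus control, log2) in MDA-MB231 (horizontal axis) and in Hs578T (vertical axis) for the 34 tested chains, coloured by family, over all other genes tested in grey; 31 genes beyond 1.5 log2 are outside the plot, dotted lines mark 1.5-fold, and chains at least 0.32 log2 from control in either line are named. ITGB3 is the 1 chain past 1.5-fold in MDA-MB231, and ITGA8 and LAMA2 are those past it in Hs578T.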

How the data were processed

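RNA of 4 cell samples was measured on Affymetrix arrays, 1 per sample. The authors deposited log2 expression values per probe set, made with Affymetrix Expression Console (version 1.1.2800.28061), per the submitters' processing notes. How they were normalized was not given in the sources used here. That they are log2 was read from their range of 2.40 to 14.81. If arrays were scaled to equal levels, a shift in total RNA cannot be seen, and fewer transcripts per cell cannot be told from fewer expressing cells.

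The platform annotation gave 1 gene for 19460 probe sets, and the brightest on average was taken per gene. Genes whose mean fell under the 25th percentile over probe sets (log2 6.16) were not tested. limma 3.58.1 (R 4.3.3) was fitted to all 15946 others with line and construct as terms and an intensity trend (1 residual and 5.04 prior degrees of freedom), and was tested on simulated data. Calls are at a Benjamini-Hochberg adjusted p under 0.05. Levels of different genes are not compared, since probe sets differ in brightness. All members were named; of each partner list, up to 4 genes each way with the largest called line difference. The members and lists were chosen with earlier results of these data known. The number of arrays limits the precision.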

Additional observations from a re-analysis of the deposited data

Results flagged for a closer look

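ITGB3, ITGA8 and LAMA5 each lay at least 0.32 log2 from control with FBP1 in opposite directions in the lines, as 0.677% of all genes tested were. The change in MDA-MB231 minus that in Hs578T was 1.21 log2 for ITGB3 and 1.17 for ITGA8, each higher with FBP1 in MDA-MB231 and lower in Hs578T. Both MDA-MB231 levels of ITGA8 (5.50 and 5.84) lay below the filter level, and its change there was 0.34. The median change was 0.304 over the 36 genes like it, ITGA8 among them. These were picked by a control level under the filter level in MDA-MB231 and at least 16-fold higher in Hs578T. This choice uses the control array from which the change is taken and so favours a rise. For LAMA5 the difference between the changes was −0.71, with the FBP1 array the lower one in MDA-MB231 only. With 1 array per line and construct, these differences between the lines were not tested.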

How the results depend on the processing

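The counts of chains called between the lines stayed within 1.5 times of the reported ones in all settings run: no filter or a 50th percentile filter, quantile normalization, median centring, averaged probe sets, a variance prior with no trend or a robust one, and the construct left out. Of 257 recomputed line differences with a test, 252 stayed on the same side of the threshold; the exceptions were ITGA3, ITGA2 and LAMB3. The sign of 1 uncalled difference turned, that of ITGAD, from 0.015 to −0.007 with median centring, and 0 called differences turned. Of 18 called chains, 16 kept their call in every setting that tested them. The FBP1 counts rest on the size chosen. At 0.32 log2 they were 4 chains in MDA-MB231 and 7 in Hs578T, and at 2-fold 0 and 0. With the 50th percentile filter, which removed ITGA8 and LAMA2, the Hs578T count was 0 of 19 tested. For FBP1 over both lines limma called 0 chains in each setting, also without the line as block. Signal at or below the filter level limits ITGA8, ITGA4 and ITGB6. That level is a percentile, and the background of single probe sets was not measured. Low values above it may thus also lie near background. Among these are ITGB4 in Hs578T (7.21 and 7.46), ITGA11 (6.99 and 6.94) and LAMA2 (6.73 and 6.60) in MDA-MB231, and LAMA1 in both lines.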
